A study of Mus musculus with 2 samples.

Results

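The respiratory chain is the set of enzyme complexes in the inner mitochondrial membrane that pass electrons from NADH and succinate to oxygen and store the energy as a proton gradient, which ATP synthase uses to make ATP. The genes described here are the nuclear genes of complexes I to V and of cytochrome c, in mouse 3T3 fibroblasts that were either held unattached or plated on fibronectin. They were found by symbol, current or older, among probe sets that the MG_U74Av2 annotation assigns to exactly 1 gene. This gave 101 probe sets of 73 genes, out of 8251 genes named on the array: 31 of complex I, 4 of complex II, 8 of complex III, cytochrome c (Cycs), 15 of complex IV and 14 of complex V. The symbol rule also matched Emc8 through its older name Cox4nb. Emc8 encodes a protein of the endoplasmic reticulum, so it was left out, and 74 genes match when it is counted. Another 10 probe sets carry such a symbol beside that of a second gene or pseudogene, among them those of Ndufa11, Ndufb4, Ndufs5, Ndufs6 and Cox7c, and were not used.

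The 2 samples were total RNA of MEF 3T3 fibroblasts in serum-free DMEM, the first from a suspension culture and the other after 30 min on 10 µg/ml fibronectin, a matrix glycoprotein that cells bind through integrins. Each was hybridised to 1 array, so no value below has a replicate, and no test between the groups was possible. The design text also speaks of 2 replicates, and whether an array stands for more than 1 culture is not known here. "Higher" and "lower" describe these 2 arrays. The signals are the authors' MAS5 intensities, rescaled to a common 2% trimmed mean. A log2 ratio is fibronectin minus suspension, taken after signals under a floor of 490 were set to that floor, and a gene was measured if its brightest probe set reached the floor on at least 1 array. Where 1 array lies below the floor, the fold is a lower bound for this scaling and this floor only, and is written "at least". Another scaling or a higher floor can give a smaller value or no value. As a further guide to what is bright, 34 negative-control probe sets had a 95th percentile of 1403 in suspension and 1873 on fibronectin, and "within the negative controls" means below these.

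Most fibroblast markers gave a signal on both arrays, with exceptions. Of 15 fibroblast markers 14 were on the array and 13 were measured, with Col1a1 at 45605 in suspension and 68592 on fibronectin, and their summed signal was 173609 and 266346. Thy1 was below the floor on both arrays, and Vim, a filament gene of fibroblasts, had only 1421 and 686. Of 15 muscle markers, which matter here because complex IV has muscle isoforms, 9 were measured and Acta1, Mb, Myh2, Tnni2, Tnnt2 and Tnnt3 were below the floor on both arrays. The summed muscle signal was 13000 and 12053, led by Actc1 with 5567 and 6118, and Ckm had 1672 and 668. Of 6 epithelium markers 5 were measured, but only Cdh1, with 2154 and 1112, reached the floor on both arrays. Of 7 macrophage and blood markers 3 were measured, among them Csf1r with 1844 and 1443 and Hba-a1 of red cells with 2013 and 956. Endothelium had 2 of 5 measured, 0 of them at the floor on both arrays. Adipocytes had 1 of 3, Lep with 2098 and 2376. The fibronectin signals of Vim, Ckm, Cdh1, Csf1r and Hba-a1 lie within the negative controls. So does that of the fibroblast marker Postn (1553), and Fap and Lum lie within them on both arrays. Of the measured muscle markers only Actc1 was above them on both arrays. The ratio of the 3′ to the 5′ control probe set, a sign of how complete the labelled RNA is, was 1.79 in suspension and 1.19 on fibronectin for beta-actin, and 1.47 and 0.841 for Gapdh. This difference, like the chip lot, operator, fluidics module and scan day, cannot be told apart from the groups, and its part in the results was not tested.

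Many nuclear genes of the chain are known targets of nuclear respiratory factor 1 (NRF1) and of the Ets-family factor GABP, whose DNA-binding subunit is Gabpa, and some of YY1. In the RefSeq promoter table (build GRCm38.p6, 250 bases before to 50 after each gene's start), 59 of the 73 genes had a window. Atp5a1, Atp5mpl, Cox4i1, Cox6a2, Cox6c, Cox8c, Cyc1, Ndufa2, Ndufb9, Ndufs1, Sdhc, Uqcrb, Uqcrc2 and Uqcrq had none. The NRF1 motif, GCGCA then any base then GCGC, read on both strands, was in the windows of 12 of them (20.3%), compared with 11.2% of 5109 measured genes with a window and 4.60% of all 32851 windows. The GABP motif CCGGAAG was in 16 (27.1%), compared with 19.1% of the measured genes and 8.86% of all windows. The YY1 motif AAGATGGC was in 8 (13.6%), compared with 5.19% and 2.75%. A match is a string of letters and not a shown binding site. The 3 genes with both an NRF1 and a GABP match (Atp5k, Cox6a1 and Sdhd) are printed here, with Atp5g2, which had the lowest ratio of all members, and Sdha, which has 3 NRF1 matches. Each run is the 250 bases before the start, 5′ to 3′ along the gene. Capitals mark NRF1 and GABP matches on either strand, which overlap in none of the runs. The GABP match of Atp5k spans the start and is not in capitals.
Atp5k (chr5:108434400-108434649, minus strand): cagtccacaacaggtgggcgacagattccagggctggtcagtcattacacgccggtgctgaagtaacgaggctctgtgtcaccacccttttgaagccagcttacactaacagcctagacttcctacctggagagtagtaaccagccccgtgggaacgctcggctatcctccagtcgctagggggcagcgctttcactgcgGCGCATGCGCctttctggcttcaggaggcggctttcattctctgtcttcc
Cox6a1 (chr5:115348959-115349208, minus strand): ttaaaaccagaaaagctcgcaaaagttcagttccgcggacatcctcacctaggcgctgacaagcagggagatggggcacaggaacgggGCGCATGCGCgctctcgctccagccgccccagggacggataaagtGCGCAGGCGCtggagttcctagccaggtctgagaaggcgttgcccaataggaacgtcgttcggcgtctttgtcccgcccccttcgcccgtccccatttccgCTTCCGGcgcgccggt
Sdhd (chr9:50603850-50604099, minus strand): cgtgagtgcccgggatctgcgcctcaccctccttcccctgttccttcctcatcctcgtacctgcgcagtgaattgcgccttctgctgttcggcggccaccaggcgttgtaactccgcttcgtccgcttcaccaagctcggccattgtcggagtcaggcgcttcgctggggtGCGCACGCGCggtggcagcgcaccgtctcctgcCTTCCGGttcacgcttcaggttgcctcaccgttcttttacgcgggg
Atp5g2 (chr15:102671048-102671297, minus strand): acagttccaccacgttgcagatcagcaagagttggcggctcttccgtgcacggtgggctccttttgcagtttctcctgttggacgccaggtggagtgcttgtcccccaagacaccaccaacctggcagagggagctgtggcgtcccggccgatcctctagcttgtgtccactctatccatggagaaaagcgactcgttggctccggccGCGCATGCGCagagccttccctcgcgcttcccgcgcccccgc
Sdha (chr13:74350241-74350490, minus strand): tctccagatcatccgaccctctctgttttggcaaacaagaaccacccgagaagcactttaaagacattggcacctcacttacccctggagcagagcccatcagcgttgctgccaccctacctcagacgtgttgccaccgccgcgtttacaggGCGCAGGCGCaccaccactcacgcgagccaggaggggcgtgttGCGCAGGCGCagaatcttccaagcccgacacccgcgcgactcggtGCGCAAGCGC
Members with and without a motif overlapped widely in their ratios. The 12 measured members with the NRF1 motif had log2 ratios from -1.73 (Atp5g2) to 0.76 (Atp5k), with a median of 0.01 and 6 below 0. The 42 measured members whose windows lack it ran from -1.32 to 0.94, with a median of -0.17 and 30 below 0. With the GABP motif the median of 16 members was -0.06, and without it the median of 38 was -0.15. For the YY1 motif the order was the other way, with a median of -0.24 for 6 members with it and -0.08 for 48 without.

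The respiratory chain as a whole was bright, and with the scaling used here most of its genes had similar signals in both states. Of the 73 genes, 67 were measured, 61 of them at or above the floor on both arrays. Within 1.5-fold lay 53 of the 67 (79.1%), beside 61.7% of all measured genes. With scaling to the hybridisation spikes 46.4% of the members were at least 1.5-fold lower, beside 45.6% of all genes. The median signal of the measured members was 5177 in suspension and 4886 on fibronectin, against 1494 and 1316 over all 6367 measured genes. Their median log2 ratio was -0.08, beside -0.09 over all measured genes, and the sign of both turned under median scaling, to 0.13 and 0.11. Of the 67 members, 3 were past 1.5-fold in favour of fibronectin (Cox6b2, Ndufb9 and Atp5k), where 15.9% of all measured genes were. At least 1.5-fold lower were 11 members (16.4%), where 22.4% of all measured genes were. No member had a measured ratio or bound of at least 2-fold upward (5.75% of all genes did). The bound of Cox6b2, 1.92-fold, leaves its true ratio unknown, and under median scaling Cox6b2 and Ndufb9 passed 2-fold with log2 ratios of 1.05 and 1.02. In the other direction 3 were at least 2-fold lower (9.17%), namely Atp5g2, Ndufc2 and, as a bound, Atp5j2. The bound of Atp5j2 fell short of 2-fold under median scaling, with a log2 ratio of -0.90. A ratio above 0 was found for 22 members (32.8%), where 45% of all genes had one. Under median scaling this order turned, with 42 of 67 members (62.7%) above 0 beside 56.4% of all genes.

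**Figure D1:**
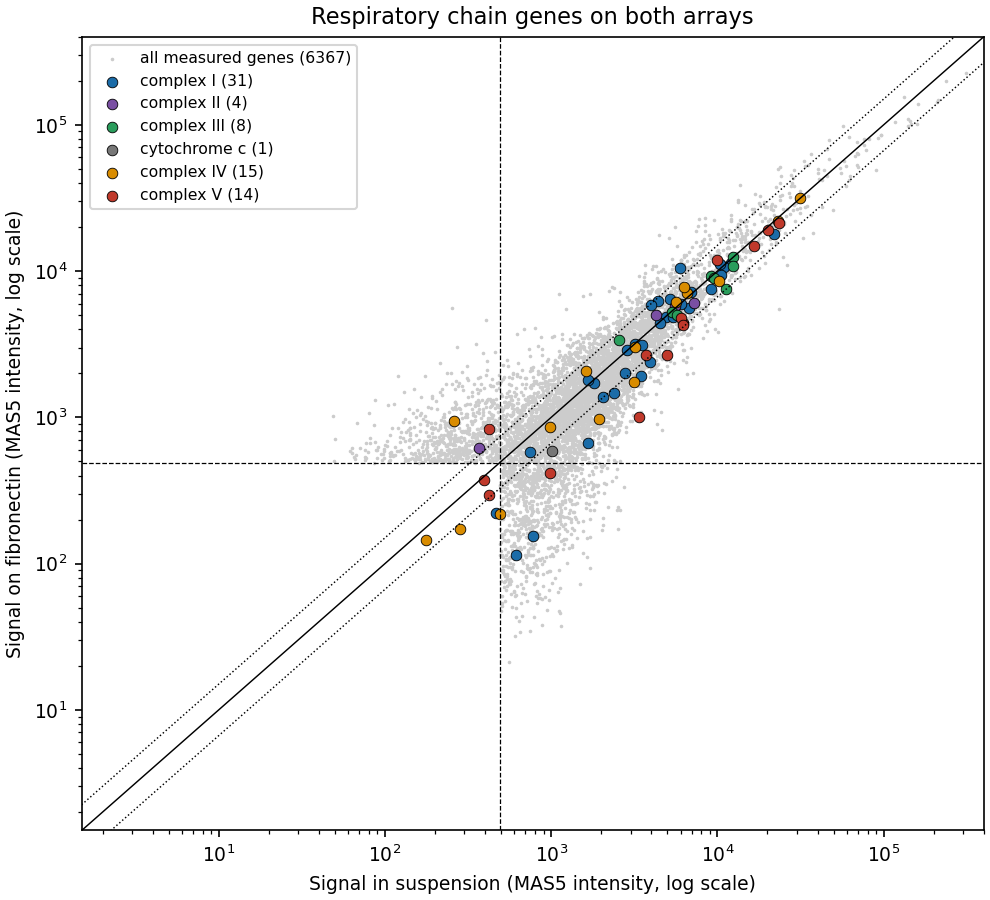
Signal of each gene in suspension (x axis) and on fibronectin (y axis), both MAS5 intensities on log scales. Coloured points are the 73 respiratory chain genes by complex, grey points all 6367 measured genes, the solid line marks equal signals, dotted lines a 1.5-fold difference and dashed lines the floor of 490. Most coloured points lie in the bright part of the plot between the dotted lines.

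The share of all measured genes within 1.5-fold was 54.6% in the lowest tertile of mean signal, 58.1% in the middle one and 72.6% in the highest, so the members were also set beside the genes of the highest tertile. Of the 67 measured members, 50 fell in the highest tertile of mean signal. They were brighter than the tertile as a whole, with median signals of 6116 in suspension and 6079 on fibronectin against 3898 and 4077, so brightness was only partly matched. Of these 50, 45 (90%) had both signals within 1.5-fold, beside 72.6% of all 2122 genes in that tertile. Only Ndufb9 was at least 1.5-fold higher, where 17% of the tertile were, and 4 were at least 1.5-fold lower (8%), where 10.5% were. None of the 50 was 2-fold higher or lower, where 4.15% of the tertile were 2-fold higher and 2.07% lower. The interquartile range of the log2 ratio was 0.32 for the members and 0.74 for the tertile. Ratios above 0 numbered 17 (34%) against 53.4% in the tertile, and 35 (70%) against 68.1% under median scaling. The median was -0.08 against 0.04, a gap of -0.12 that a constant factor per array leaves nearly as it is. With loess the gap was -0.17 and with quantile normalization -0.19. The share within 1.5-fold was above that of the tertile under 5 of the 6 scalings tried, and with scaling to the hybridisation spikes it was 56% against 57.7%. The 17 dimmer members scattered more, as did all genes of those tertiles. Of 8 in the lowest tertile, 2 lay past 1.5-fold upward (25%, beside 16.7% of all genes there) and 3 downward (37.5%, beside 28.7%). Of 9 in the middle one, 4 were lower (44.4%, beside 28.0%) and 0 higher (beside 13.9%). The SD of the log2 ratio was 0.73 for members against 0.77 for all genes in the lowest tertile, and 0.69 against 0.75 in the middle one.

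**Figure D2:**
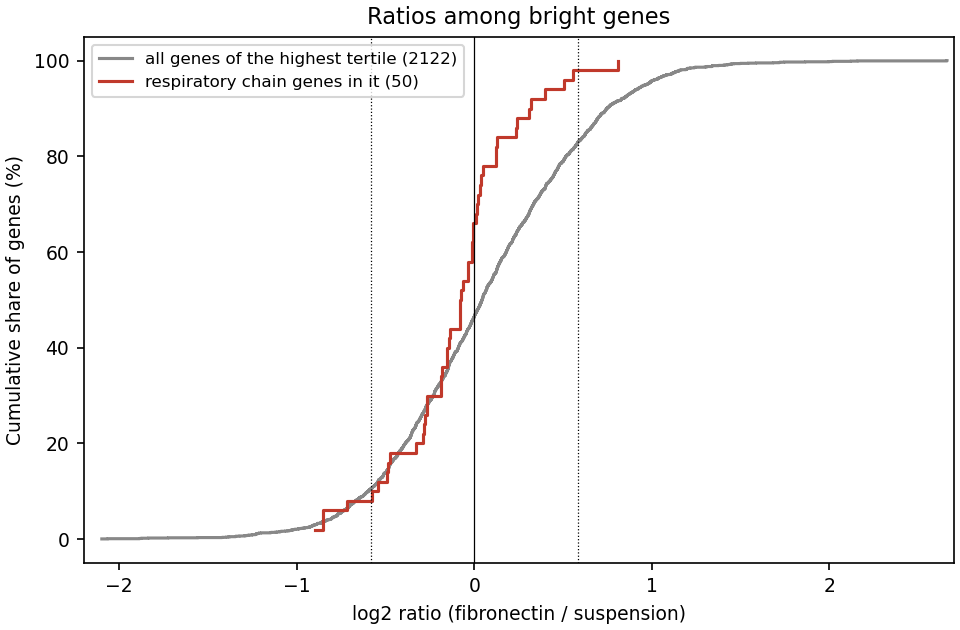
Cumulative share of genes (y axis, percent) up to each log2 ratio, fibronectin over suspension (x axis), for the 2122 genes of the highest tertile of signal (grey) and the 50 respiratory chain genes in it (red). Dotted lines mark 1.5-fold. The red curve climbs over a narrower range of ratios than the grey one, with an interquartile range of 0.32 against 0.74, and lies above it at every ratio over 0.

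Complex I, the entry point for electrons from NADH, was measured in 30 of its 31 genes. Of these 22 had a ratio below 0 and 8 above (26.7%, beside 45% of all genes), with a median of -0.11. Median scaling turned this to 18 above and 12 below (median 0.10), where 56.4% of all genes lay above. The odd one out was Ndufs4, an accessory subunit, with signals of 464 and 221, below the floor on both arrays. The 4 core subunits on the array, which belong to the part that does the chemistry, went separate ways. Ndufs1, the large iron-sulfur subunit of the NADH-oxidising arm, had 3462 in suspension and 1913 on fibronectin, 1.81-fold lower. It stayed at least 1.5-fold lower under all 14 alternatives that gave it a value, with log2 ratios from -1.33 to -0.65. Only the scalings changed the value. Ndufs3, a core subunit of the arm's quinone-reducing part, had 3984 and 5865, a log2 ratio of 0.56 that shrank to 0.08 with scaling to the spikes. Ndufv1, which binds NADH and the flavin, had 10328 and 11245. The iron-sulfur subunit Ndufv2 had nearly equal signals of 6025 and 5999 in its brighter probe set. Its dimmer probe set was at least 4.45-fold lower, with 2181 and 274, and the mean of both gave a log2 ratio of -1.08. Of the probe sets that stand for the 4 genes, that of Ndufs1 was past 1.5-fold, and under median scaling that of Ndufs3 was as well (log2 ratio 0.76).

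The accessory subunits of complex I surround the core and stabilise it. Of 24 measured, 19 had a ratio below 0 and 5 (20.8%, beside 45% of all genes) one above, with a median of -0.15. Under median scaling 10 were below 0 and the median was 0.06, where 56.4% of all genes lay above 0. Among the accessory subunits Ndufb9, of the membrane arm, had the highest ratio of the complex, with 5993 in suspension and 10515 on fibronectin (1.75-fold higher). It kept 1.5-fold under 13 of 14 alternatives and had a log2 ratio of 0.34 with spike scaling. The quinone-arm subunit Ndufa9 had 4388 and 6224, a log2 ratio of 0.50. The lowest was Ndufc2 of the membrane arm, 2.49-fold lower with 1668 in suspension and 668 on fibronectin. The fibronectin signal was within the negative controls, and when the floor was raised to their mean 95th percentile the log2 ratio was -0.03. Its neighbour in name and place, Ndufc1, had 3952 and 2405, 1.64-fold lower, with signals above the negative controls on both arrays. Ndufv3, on the NADH-oxidising arm, had 2399 and 1458, 1.65-fold lower, with the fibronectin signal within the negative controls. Ndufa12 had 772 and 154, at least 1.58-fold lower and within the negative controls on both arrays. Complex I thus had 5 genes at least 1.5-fold lower (16.7%, beside 22.4% of all genes). Under median scaling Ndufs1 and Ndufc2 were the 2 that stayed so, with Ndufc1 and Ndufv3 at -0.51 and Ndufa12 at -0.56.

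Most other accessory subunits were nearly level. Ndufa7 had 21909 in suspension and 18032 on fibronectin, and Ndufb5 had 12034 and 11371. Ndufa2, Ndufa5, Ndufa6 and Ndufa8 had log2 ratios between -0.01 and 0.02. Ndufb7 had 11004 and 10718 and Ndufb10 3493 and 3137, while Ndufb6 had 5177 and 6450. These membrane-arm subunits therefore lay on both sides of 0. Ndufab1, the mitochondrial acyl carrier protein, Ndufb8 and Ndufb11 had log2 ratios of -0.08, -0.15 and 0.05. Ndufa13, also known as GRIM-19, had -0.29, and Ndufb3 and Ndufa10 had -0.48 and -0.57, just short of 1.5-fold. Ndufa1, a small subunit of the membrane arm, had 748 and 584, within the negative controls. The assembly factors Ndufaf1 and Ndufaf4, which help build the complex but are not part of it, had 1675 and 1805, and 615 and 115. The latter pair makes Ndufaf4 at least 1.26-fold lower.

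**Figure D3:**
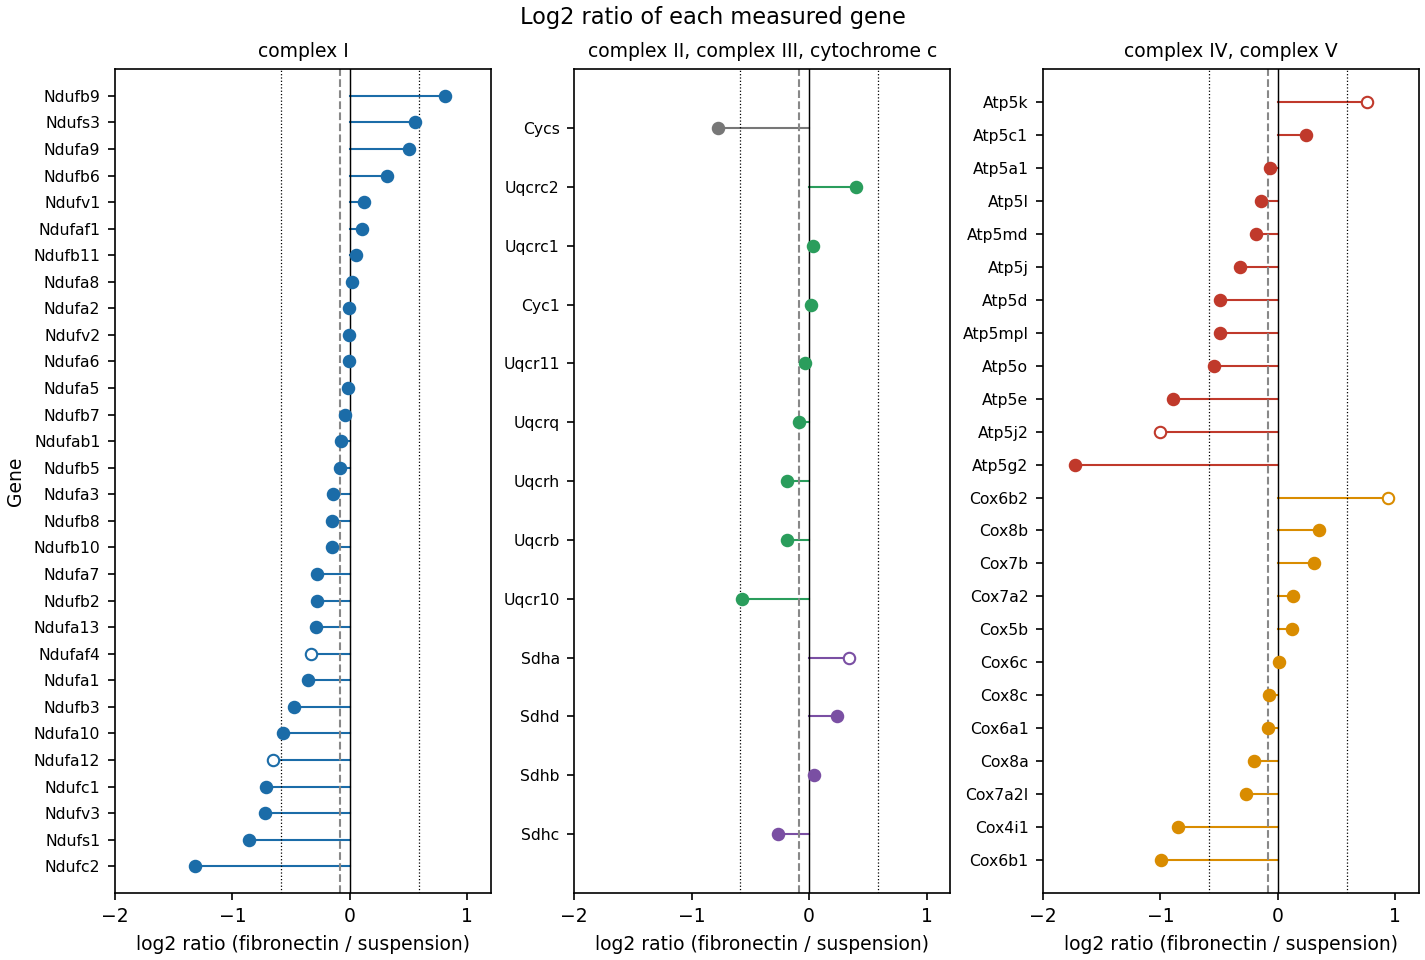
Log2 ratio of fibronectin over suspension (x axis) for each of the 67 measured genes (y axis), by complex. Filled points have both signals at or above the floor and open points are bounds. Dotted lines mark 1.5-fold and the dashed grey line the median of all measured genes, -0.09. No point of complex II or III lies past 1.5-fold, with Sdha a bound. Under other scalings Uqcrc2 (median), Uqcr10 (quantile, loess and spikes), and Uqcrb, Uqcrh and Sdhc (spikes) pass it. Of 12 complex V genes 10 lie below 0, as do 3501 of all 6367 measured genes. Under median scaling 7 of the 12 do, where 56.4% of all genes lie above 0.

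Complex II, succinate dehydrogenase, which is also an enzyme of the tricarboxylic acid cycle, had 3 of its 4 genes within 1.5-fold as reported and a bound for the other. The flavoprotein gene Sdha had 370 in suspension and 618 on fibronectin, at least 1.26-fold higher and within the negative controls on both arrays. Without a floor its log2 ratio was 0.74, past 1.5-fold. The iron-sulfur subunit gene Sdhb had 5569 and 5726. Of the membrane anchors, Sdhc had 7218 and 6006 and Sdhd 4268 and 5025, log2 ratios of -0.27 and 0.24, so the pair pointed in opposite directions. The median of the complex was 0.14, and -0.34 with spike scaling, where Sdhc passed 1.5-fold (-0.74).

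Complex III, which passes electrons from ubiquinol to cytochrome c, was measured in all 8 genes, and every one lay within 1.5-fold as reported. Its heme protein gene Cyc1 had 12437 in suspension and 12558 on fibronectin. The core protein genes Uqcrc1 and Uqcrc2 had 9131 and 9324, and 2559 and 3378. The log2 ratio of Uqcrc2 was 0.40, and 0.61 under median scaling, past 1.5-fold. The 5 small subunits all had ratios below 0, as did 3501 of all 6367 measured genes. Uqcr10 had the lowest, with 11244 and 7544 (log2 ratio -0.58), which passed 1.5-fold after quantile normalization (-0.75) and loess (-0.73), and the hinge protein gene Uqcrh had 12324 and 10832. Uqcrb, Uqcrq and Uqcr11 had -0.19, -0.08 and -0.03. With spike scaling Uqcr10 (-1.05), Uqcrb (-0.66) and Uqcrh (-0.66) were past 1.5-fold. Under median scaling only 1 of the 5 small subunits stayed below 0. Cytochrome c, the mobile carrier to complex IV, is encoded by Cycs, with 1010 in suspension and 590 on fibronectin, 1.71-fold lower. Both of its signals lie within the negative controls, and its log2 ratio was between -0.57 and -0.54 under median, quantile and loess scaling, short of 1.5-fold.

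Complex IV, cytochrome c oxidase, reduces oxygen; its catalytic subunits are encoded in mitochondrial DNA and the genes here encode the nuclear subunits around them. Of 15 genes 12 were measured, with 6 ratios above 0 and 6 below and a median of -0.03 (0.17 under median scaling). Cox6c and Cox6a1 were nearly level. Cox6c had 31228 in suspension and 31432 on fibronectin, and Cox6a1 had 23094 and 21825. Cox5b, which binds zinc, had 6557 and 7127, Cox7a2 had 5629 and 6151, and Cox7b had 6304 and 7793. Cox7a2l, which takes part in joining complexes into supercomplexes, had 10287 and 8547. None of these 6 reached 1.5-fold as reported, and Cox7a2l passed it with spike scaling (-0.74). Lower genes were Cox6b1, on the face toward the intermembrane space, with 1940 and 973 (1.99-fold), and Cox4i1, a regulatory subunit, with 3166 and 1751 (1.81-fold). The fibronectin signals of both lie within the negative controls. Cox6b1 had a log2 ratio of -0.24 with the raised floor, while Cox4i1 kept -0.85. Cox8a had 983 and 853, and Cox5a was below the floor on both arrays with 489 and 218.

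Several complex IV subunits exist as a general form and a form of muscle, heart or testis, and the array covers 5 of the latter. The muscle forms Cox6a2 (282 and 172) and Cox7a1 (176 and 145) were below the floor on both arrays, unlike their general counterparts Cox6a1 and Cox7a2, which were above it on both. The picture was less clean for the other forms. Cox8b, a muscle form, had 1615 and 2059 in 1 probe set, above the negative controls on both arrays, and 189 and 102 in the other. Cox8c, a testis form, had 3198 and 3037 in 1 probe set and 122 and 99.5 in the other. Cox6b2, also a testis form, had 262 and 939 in its brightest probe set, at least 1.92-fold higher, and 68.4 to 197 in the others. All of these Cox6b2 signals lie within the negative controls. For these 3 genes the probe sets thus contradict each other on whether the gene reaches the floor at all. Signals of different probe sets cannot be ranked against each other, so no order of isoform levels is given.

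Complex V, ATP synthase, was the complex with the lowest median. Of 14 genes 12 were measured, and 2 of them (16.7%, beside 45% of all genes) had a ratio above 0 and 10 one below. Under median scaling 5 lay above 0 and 7 below, where 56.4% of all genes lay above. The median of the complex was -0.41. This median stayed below 0 under all 15 alternatives, from -0.88 to -0.14, the smallest with probe sets left out that can detect related sequences. Its gap to the median of all genes was then -0.08, against -0.32 as reported. In the F1 head, where ATP is made, the alpha subunit gene Atp5a1 had 20074 in suspension and 19213 on fibronectin. The gamma subunit gene Atp5c1, of the central rotor, had 9992 and 11810. The 2 small rotor genes were lower in the probe sets used, Atp5e (epsilon) with 4946 and 2657 (1.86-fold) and Atp5d (delta) with 3725 and 2654 (log2 ratio -0.49). For Atp5d the mean of its probe sets gave -0.01, and leaving out those that can detect related sequences gave 0.93. Atp5e stayed at least 1.5-fold lower under all 13 alternatives that gave it a value, of which only the scalings changed it. Its only probe set is among those that can detect related sequences, so it had no value when these were left out. In the stalk that holds the head still, Atp5o had 6235 and 4274 and Atp5j 6016 and 4798, log2 ratios of -0.54 and -0.33, and Atp5pb was below the floor on both arrays with 396 and 374. Every stalk gene measured was therefore lower, by less than 1.5-fold as reported, and both stayed below 0 under median scaling. Atp5o passed 1.5-fold with quantile normalization (-0.67), loess (-0.64) and spike scaling (-1.02), and Atp5j with spike scaling (-0.80).

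In the membrane part of complex V, the c ring through which protons flow is encoded by several genes whose mature protein is the same. Atp5g2 had 3355 in suspension and 1012 on fibronectin, 3.31-fold lower and the lowest ratio of all members. The fibronectin signal is within the negative controls, and the log2 ratio was -1.03 with the raised floor. Its second probe set went the other way, with 403 and 825, at least 1.68-fold higher. Atp5g1 was below the floor with 423 and 296 in its brighter probe set and had 746 and 127 in the other, at least 1.52-fold lower. The direction of the c ring genes was thus not settled. Of the small membrane subunits, Atp5l (g) had 23510 and 21295 and Atp5md 16703 and 14722. Atp5mpl had 6207 and 4408, a log2 ratio of -0.49. Atp5j2 (f) had 983 and 414, at least 2.01-fold lower, and Atp5k (e) had 422 and 829, at least 1.69-fold higher. The signals of Atp5j2 and Atp5k lie within the negative controls on both arrays. Over the other scalings the log2 ratio ran from -1.21 to -0.90 for Atp5j2 and from 0.49 to 0.88 for Atp5k. Neither gene had a value with the raised floor.

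The genes with several probe sets give more than 1 reading of the same transcript. Of the 21 such members, 10 had more than 1 measured probe set. In 4 of these the ratios agreed within 0.5 on the log2 scale. The closest pair was that of Atp5c1 (0.24 and 0.23), followed by Cyc1, whose second probe set had 10846 in suspension and 12942 on fibronectin (log2 ratio 0.25). Atp5l had 659 and 355 in its dimmer probe set, at least 1.35-fold lower, and Ndufb2, with 9155 and 7524, had 7616 and 5050 in its second (log2 ratios -0.28 and -0.59). In the other 6 the spread was larger. Ndufv2 was level in its brighter probe set and far lower in the other, as given above. Ndufa3, with 5376 and 4881, had 2004 and 703 in the other (2.85-fold lower). Cox4i1 had 847 and 908 in its second probe set, so that its lower ratio rests on 1 of them, and the second of Cox6c had 743 and 87.2. Of the 5 probe sets of Atp5d, 3 were lower and 2 at least 1.48-fold and at least 1.91-fold higher, the latter 2 from suspension signals of 206 and 262. Atp5g2, Atp5d, Cox4i1 and Cox6c were the 4 genes with measured probe sets of opposite sign. Another 14 probe sets of members whose brighter probe set was used were below the floor on both arrays, with signals from 35.7 to 485, and give no ratio. Over all genes with at least 2 probe sets above the floor on both arrays (672 genes), the SD of a log2 ratio between probe sets of a gene was 0.61.

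**Figure D4:**
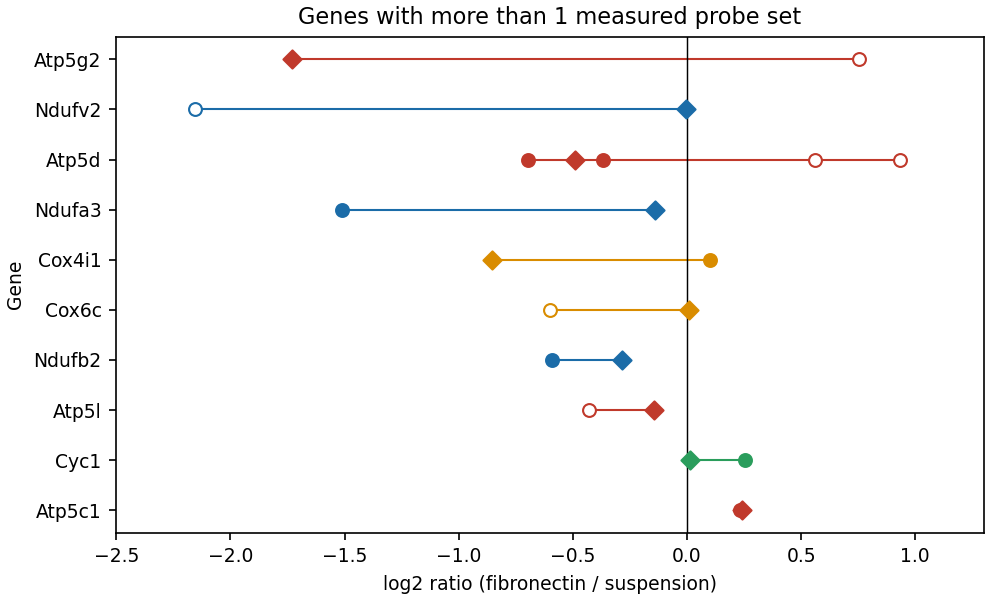
Log2 ratio of fibronectin over suspension (x axis) of each measured probe set of the 10 members with more than 1 (y axis), ordered by their spread. Diamonds are the probe sets used for the gene, circles the others, and open symbols are bounds. The probe sets of Atp5c1 coincide near 0.24, while those of Atp5g2 lie at -1.73 and 0.75.

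Other mitochondrial genes, from lists chosen for this description, were counted in the same way. The tricarboxylic acid cycle, which feeds electrons into the chain, had 12 of its 13 enzymes on the array measured, with 9 ratios above 0 (75%, beside 45% of all genes), a median of 0.23 and none past 1.5-fold. Under median scaling 5 were at least 1.5-fold higher, and after quantile normalization and loess 7 were above 0. Ogdh, of the oxoglutarate dehydrogenase complex, had 2341 in suspension and 3498 on fibronectin, and Dlst of the same complex had 1767 and 2636, both with log2 ratios of 0.58. The lowest was Idh3a with 1437 and 978, the latter within the negative controls. With spike scaling the median of the cycle was -0.24. Genes of pyruvate entry had a median of -0.21 over 6 measured, 2 of them at least 1.5-fold lower (33.3%, beside 22.4% of all genes) and none higher. Their lowest was the inhibitory kinase gene Pdk1, at least 2.02-fold lower with 988 and 324, and the highest Pdha1 with 4830 and 6264. Both Pdk1 signals lie within the negative controls. The median of the list was 0.00 under median scaling, with 1 gene at least 1.5-fold lower.

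Factors that assemble the chain had 17 measured genes, 4 at least 1.5-fold lower (23.5%, near the 22.4% of all genes) and none higher, with a median of -0.34. Median scaling left 3 lower and brought 2 past 1.5-fold upward (median -0.13). Cox16, an assembly factor of complex IV, had 2632 and 1307 (2.01-fold lower), and Sdhaf1 of complex II had 1040 and 1428. Mitochondrial carriers and pores had 10 measured genes, 7 with a ratio below 0 and 3 above (30%, beside 45% of all genes). Their median was -0.22 (-0.01 under median scaling). The adenine nucleotide carrier gene Slc25a4, which exchanges ADP for ATP, had 31517 and 27126. The pore gene Vdac2 was the highest with 764 and 1323 (1.73-fold) and Ucp1 the lowest with 733 and 523. Of 54 measured mitochondrial ribosomal protein genes, 7 lay past 1.5-fold upward (13.0%, beside 15.9% of all genes) and 15 downward (27.8%, beside 22.4%), with a median of -0.28, from Mrps2 (2107 and 726, 2.90-fold lower) to Mrps28 (378 and 983, at least 2.01-fold higher). Of 15 genes of protein import, 2 were higher and 2 lower by that measure, from Timm13 with 9510 and 5065 (1.88-fold lower) to Timm22 with 109 and 841 (at least 1.72-fold higher). The import shares were 13.3% in each direction. Under median scaling the medians of the ribosomal and import lists were -0.06 and 0.03, and the ribosomal counts were 10 upward and 11 downward. Of the genes named in this paragraph, Sdhaf1, Vdac2, Ucp1, Mrps28 and Timm22 lie within the negative controls on both arrays. The fibronectin signals of Cox16 and Mrps2 do so as well.

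Regulators of mitochondrial biogenesis, among them the GABP subunits and Yy1, had 12 measured genes and a median of 0.15 (-0.25 with spike scaling). Past 1.5-fold, 1 lay upward (8.33%, beside 15.9% of all genes) and 2 downward (16.7%, beside 22.4%). Gabpa, the DNA-binding subunit of GABP, was the highest with 502 in suspension and 1185 on fibronectin (2.36-fold). Its partner Gabpb1 had 1312 and 1107, and Yy1 had 3526 and 4045. The signals of Gabpa and Gabpb1 lie within the negative controls. The lowest was Creb1 with 1280 and 206, at least 2.61-fold lower and within the negative controls on both arrays. Ppargc1a, the coactivator PGC-1alpha, and Tfam, which packages and transcribes mitochondrial DNA, were below the floor on both arrays, with 209 and 58.8, and 115 and 264.

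The choice of scaling shifts every gene, so medians are best read beside that of all measured genes. That median was -0.09 as reported, 0.11 under median scaling, and -0.51 when the 9 spike probe sets set the scale. These 3 scalings differ by a constant factor per array, which moved the chain and all genes nearly alike. The median of the chain minus that of all genes was 0.005 as reported, 0.02 under median scaling and -0.05 with the spikes. The chain lay furthest below all genes after quantile normalization (-0.23 against -0.02) and loess (-0.19 against -0.02). Complex V lay below the median of all genes under all 15 alternatives, by 0.08 to 0.46.

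**Figure D5:**
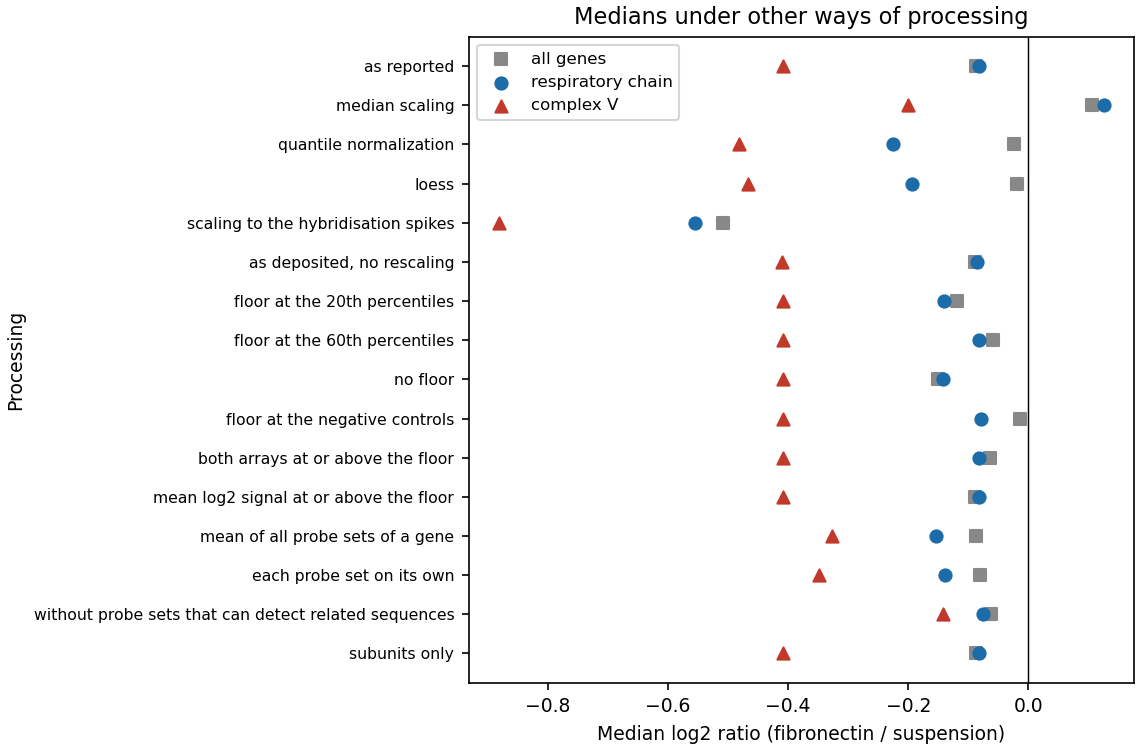
Median log2 ratio of fibronectin over suspension (x axis) under the reported processing and each of 15 alternatives (y axis), for all measured genes (grey squares), the respiratory chain (blue circles) and complex V (red triangles). The triangles lie left of 0 and left of the squares in every line, while the circles and squares cross 0 under median scaling.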

How the data were processed

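The authors deposited linear intensities, a single MAS5 signal for every probe set, per the submitters' processing notes. The MAS5 version, scaling target and detection calls were not given in the sources used here. Depth has no meaning for arrays, and the single array per group limits the precision. Both arrays were brought to equal 2% trimmed means of their 12422 non-control probe sets (factors 0.999 and 1.00). The floor, 490, is the average of their 40th percentiles, and logs were taken after flooring. The brightest probe set by mean log2 signal stood for its gene. Of 12488 probe sets 10855 had 1 symbol, 396 several and 1237 were not listed in the platform annotation; all 101 member probe sets matched the RefSeq gene table (GRCm38.p6) by gene ID. Negative controls were 34 control probe sets, antisense or of genes not added. The calculation was tested on simulated data. Genes printed were every member past 1.5-fold, the 2 brightest, highest and lowest of each complex, members with several probe sets, isoform families, and the highest and lowest of each other list. The members and lists were chosen with earlier results of these data known. Python 3.11.15, numpy 2.4.6, pandas 2.3.3 and statsmodels 0.14.6 were used. Alternatives were 5 scalings, 4 floors, 2 rules for measured genes, 3 for probe sets and 1 for members.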

Additional observations from a re-analysis of the deposited data

How the results depend on the processing

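Scaling moved the medians and counts. Under median scaling the median log2 ratio of the chain turned to 0.13, of complex I to 0.10, of complex III to 0.15 and of complex IV to 0.17, and that of complex V was -0.20. The counts at least 1.5-fold higher and lower were then 6 and 7, and 42 ratios were above 0 (8.96%, 10.4% and 62.7%, beside 23.2%, 15.3% and 56.4% of all genes). With scaling to the hybridisation spikes these medians were -0.56, -0.55, -0.53, -0.46 and -0.88, that of complex II turned to -0.34, and the counts were 1, 32 and 6 (1.45%, 46.4% and 8.70%, beside 5.74%, 45.6% and 21.9% of all genes). The median of the chain was -0.19 with loess and -0.23 with quantile normalization. The count of higher genes was 1 with the floor at the 60th percentiles, 1 with the floor at the negative controls (5 lower) and 1 with both arrays required to reach the floor. With each probe set counted on its own 5 were higher and 17 lower. Without probe sets that can detect related sequences the median of complex IV turned to 0.10 and that of complex V was -0.14, and the log2 ratios of Atp5g2 and Cox4i1 turned to 0.75 and 0.10 and that of Atp5d went from -0.49 to 0.93, since another of their probe sets was read. For these genes, and for Ndufc2 with the floor at the negative controls (-1.32 to -0.03), such choices moved the ratio more than any scaling. Of the 14 members past 1.5-fold, 12 kept their sign and 4 (Atp5e, Atp5j2, Cox6b2 and Ndufs1) stayed past 1.5-fold under every alternative that measured them. Counting each probe set on its own gives no value per gene, which leaves 14 alternatives for single genes. Cox6b2 had a value under 10 of these and Atp5j2 under 11, and both had none with the floor at the negative controls. Atp5e and Ndufs1 have 1 probe set each and bright signals, so only the scalings changed their ratios. The probe set of Atp5e can detect related sequences, so Atp5e had no value without such probe sets. No paired analysis was possible because each group has 1 array. Signals near the negative controls limit the ratios of the dim members.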
